A study of Homo sapiens with 9 samples.

Results

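The early response to the BET inhibitor JQ1 was read from 6 of the 9 arrays of the series, 3 from untreated MDA-MB-231 cells and 3 from cells given 500 nM JQ1 for 12 h, as titled by the submitters. MDA-MB-231 is an established triple-negative breast cancer line, grown here in DMEM with fetal bovine serum. The controls are labelled with no agent at time 0, and no vehicle is named for them. A solvent effect or an effect of time in culture therefore cannot be told apart from that of JQ1. The other 3 arrays (500 nM JQ1 for 24 h) entered the fit for its estimate of spread. Each array is an Affymetrix Human Gene 2.0 ST array, and its deposited values were read as log2 signals. All 14884 genes with a named row were used, each by its row with the highest mean. Nothing in the labels says that samples of a group came from separate cultures, and the p-values may thus rest on technical spread alone.

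BET proteins, such as BRD2 and BRD3, bind acetylated lysines on histones through paired bromodomains. From there they help recruit P-TEFb, the kinase that releases paused RNA polymerase II into elongation, and they are concentrated at enhancers of highly transcribed genes. JQ1 fills the acetyl-lysine pocket and displaces these proteins from chromatin. Genes used as readouts of BET inhibition include HEXIM1, which encodes an inhibitor of P-TEFb and typically goes up, and MYC, a growth-promoting transcription factor that often goes down.

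Control 3 stood apart from the other 2 controls. Over the 14884 genes, the log2 differences between controls 1 and 2 had an SD of 0.152, whereas control 3 differed from them with SDs of 0.41 and 0.411. Its SDs from JQ1 arrays 1, 2 and 3 were 0.381, 0.321 and 0.355, so it was nearer to each treated array than to either control. The JQ1 arrays differed from each other by 0.2 to 0.227. Array medians over all rows ran only from 4.92 to 4.96, which is what arrays scaled to each other look like, and all differences here are relative ones, set against the rest of the array. In bulk RNA, fewer cells of a kind and less RNA per cell cannot be told apart. Counts of called genes are given with all 3 controls and again without control 3. For single genes called with all arrays, the value without control 3 is given for some only. The cause of the distance of control 3 was not tested. Of 8 markers of the line, MSN (control mean 12.31), AXL (11.72), ANXA1 (11.64), EGFR (10.90) and VIM (10.35) were bright, while S100A4 was dim at 4.17. ESR1 (5.03) and PGR (4.0), the hormone receptors that a triple-negative line lacks, were near or below the median of all rows, 4.94. Other luminal and receptor markers were brighter, such as KRT18 (control mean 9.81) and GATA3 (6.94), and that list had a median control level of 6.46. The receptor gene ERBB2 is not analysed here.

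With all arrays, 1181 genes passed the test (limma, Benjamini-Hochberg adjusted p under 0.05), which is 7.93% of those tested. Of these, 527 rose (3.54%) and 654 fell (4.39%), and 177 changed at least 2-fold, 60 upward and 117 downward. Without control 3, 2986 genes passed (20.1%), 1424 up (9.57%) and 1562 down (10.5%). Of these, 140 rose and 284 fell at least 2-fold, 424 in all. The larger set contained 1174 of the 1181 genes, each in the same direction. The remaining 1812 genes, 899 up and 913 down, passed only when control 3 was left out. These were chosen by leaving control 3 out, which largely fixes its place on them: it lay nearer the JQ1 mean than the mean of controls 1 and 2 for 1661 of them (91.7%), and inside the range of the JQ1 arrays for 700. The call survived leaving out any 1 of the 6 arrays for 430 genes, 177 up and 253 down. Control and JQ1 values did not overlap on 3301 genes (22.2%), which include all 1181 called with all arrays. Separate groups on a called gene therefore add nothing to its call. The median log2 difference over all genes was 0.01 with and without control 3.

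**Figure D1:**
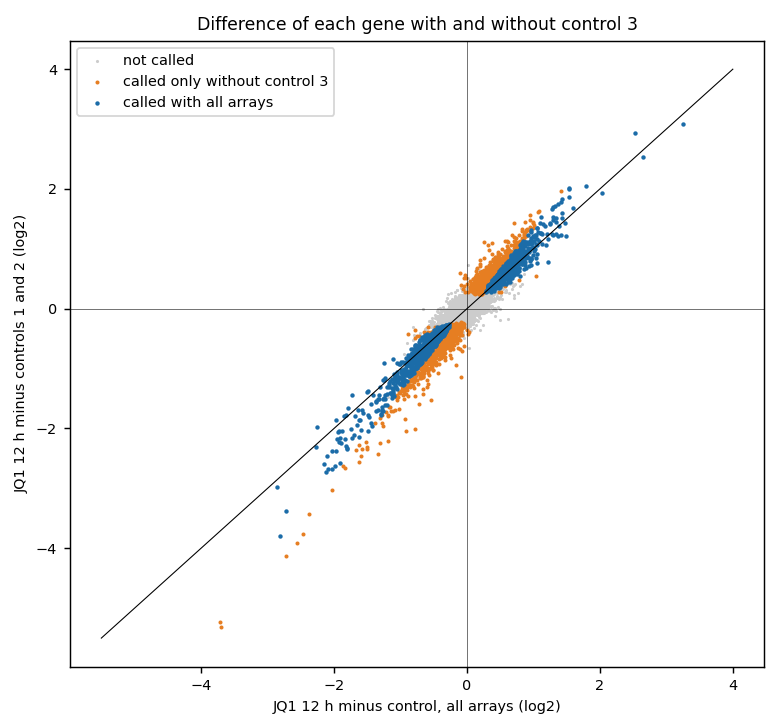
Each point is 1 of the 14884 genes, placed by its log2 difference (JQ1 12 h minus control) with all arrays on the horizontal axis and without control 3 on the vertical axis, and the diagonal marks equal values. The 1181 genes called with all arrays (blue) lie near the diagonal, while the 1812 genes called only without control 3 (orange) lie mostly farther from 0 on the vertical axis.

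Among the genes called both with and without control 3, EFR3B rose most and FST fell most with all arrays. EFR3B, whose product anchors a phosphatidylinositol 4-kinase at the plasma membrane, read 5.94, 5.63 and 5.25 in controls 1 to 3 and 8.82, 9.02 and 8.76 in JQ1 arrays 1 to 3. All JQ1 arrays were above all controls, and control 3 was the lowest. The log2 difference was 3.26 (SE 0.16, adjusted p = 3e-05), a 9.55-fold rise, and 3.08 without control 3. FST encodes follistatin, which binds and neutralises activin. It read 9.33, 9.30 and 8.99 in the controls and 6.25, 6.33 and 6.45 with JQ1. The controls were well above the treated arrays and close to each other. FST fell 7.27-fold (log2 −2.86, SE 0.14, adjusted p = 3e-05), and 7.84-fold without control 3. For ZNF532, a zinc finger protein, the controls read 8.98, 8.81 and 8.76 and the JQ1 arrays 6.56, 6.68 and 6.5. It had the smallest adjusted p among the 40 genes shown (log2 −2.27, SE 0.08, adjusted p = 7.2e-06; −2.32 without control 3).

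The other risers among the 20 highest included SESN3, a sestrin that restrains mTORC1 (log2 2.65, SE 0.16), the retrotransposon-derived PEG10 (2.52, SE 0.31), MYLIP, the ubiquitin ligase of the LDL receptor (1.47, SE 0.15), SDC2, a heparan sulfate proteoglycan (1.38, SE 0.08), KLF2 (1.37, SE 0.14) and DGAT1, which makes triglycerides (1.34, SE 0.10). On PEG10 the controls read 8.21, 8.32 and 9.53 and the JQ1 arrays 11.17, 11.10 and 11.36, so that control 3 lay between the groups and the difference was 2.94 without it. PCYOX1, MIDN, CRISPLD2, DAAM1, GXYLT2, CAVIN1, EID3, DCXR and TMEM50B rose by 1.32 to 1.54. Among the 20 lowest were EDN1, the vasoconstrictor peptide endothelin-1 (−2.26, SE 0.23), the adhesion receptor ADGRG1 (−1.98, SE 0.49), the secreted proteoglycan ESM1 (−1.94, SE 0.13), the cyclase ADCY7 (−1.92, SE 0.11), EPB41L3 (−1.91, SE 0.21) and the fatty acid activating enzyme ACSL5 (−1.90, SE 0.28). MPZL3, FBXL13, TM4SF18, ZNF827 and TRIML2 lay between −2.03 and −1.91. EDN1 was higher in control 3 (8.88) than in controls 1 and 2 (8.03 and 8.01), and read 5.89, 6.22 and 6.04 with JQ1. Without control 3 the log2 difference was −1.97 for EDN1 and −2.62 for ADGRG1. The calls of TMEM50B, CAVIN1, GXYLT2, ADGRG1 and TRIML2 were lost when any 1 array other than control 3 was left out. The call of EID3 was lost without control 1, control 2, JQ1 array 2 or JQ1 array 3.

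**Figure D2:**
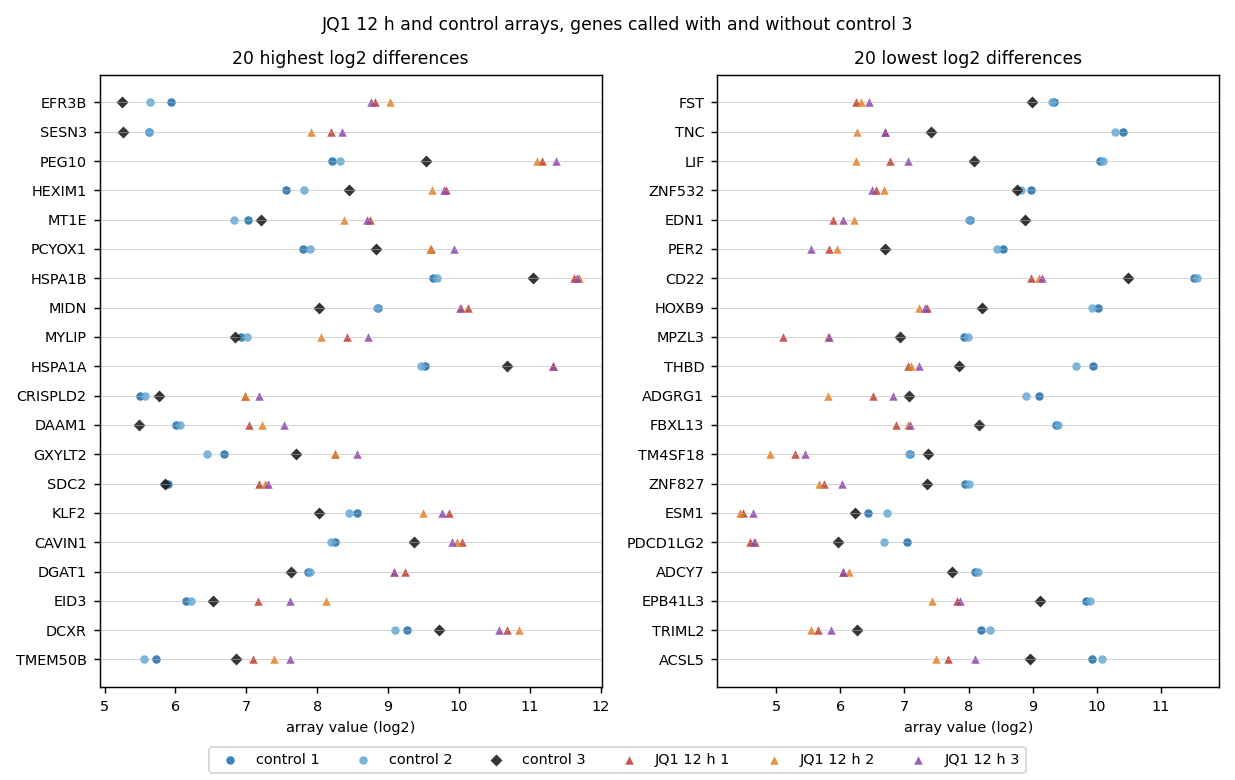
Log2 array values (horizontal axis) of 20 genes that rose most and 20 that fell most, all called with and without control 3, 1 gene per line, with circles for controls 1 and 2, a black diamond for control 3 and triangles for the 3 JQ1 arrays. The JQ1 arrays lie apart from all controls on every line, as they do on every gene called with all arrays. The diamond falls between the groups for genes such as TNC, PER2, HOXB9 and TMEM50B.

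Among 14 BET and pause-release genes, 3 rose and 1 fell (28.6% called, against 7.93% of all genes), with a median log2 difference of 0.05 against 0.01 over all genes. The shares of the lists that follow are likewise to be set against 7.93% with all arrays and 20.1% without control 3. BRD2, itself a BET protein, read 8.42, 8.38 and 8.46 in the controls and 9.45, 9.49 and 9.46 with JQ1. The groups did not overlap, and control 3 stayed with the other controls. Its log2 difference was 1.05 (SE 0.06, adjusted p = 9.9e-05), and 1.07 without control 3. HEXIM1 read 7.56, 7.82 and 8.45 in the controls against 9.81, 9.61 and 9.78 with JQ1. Control 3 was the highest control and still below every treated array. HEXIM1 rose by 1.79 (SE 0.20, adjusted p = 0.0017), or by 2.05 without control 3. A second, dim row of HEXIM1 gave 0.44. MEPCE, which caps the 7SK RNA that HEXIM1 binds, rose by 0.50 (SE 0.11, adjusted p = 0.024). NSD3, a histone methyltransferase, fell by 0.38 (SE 0.09, adjusted p = 0.028). BRD3 differed by −0.01 (SE 0.09, adjusted p = 0.96). Without control 3 the counts were 3 up and 2 down, with ELL, an elongation factor, added at −0.41. The MEPCE call was lost without any 1 array other than control 3, and that of NSD3 without controls 1 or 2 or JQ1 arrays 1 or 2.

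Of 28 genes of Mediator and RNA polymerase II, the machinery that carries enhancer signals to the promoter, 1 rose and 1 fell (7.14% against 7.93% of all genes, median −0.02). MED20 rose by 0.55 (SE 0.08, adjusted p = 0.005) and MED12, of the Mediator kinase module, fell by 0.84 (SE 0.19, adjusted p = 0.03). Without control 3, 6 rose and 4 fell, MED31 (0.84), POLR2H (0.62) and CCNC (0.56) among the rises. The MED12 call was lost when any 1 array other than control 3 was left out.

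The MYC and MAX network (11 genes) had 1 rise and 1 fall (18.2%, median −0.01), and 1 rise and 4 falls without control 3. MYC read 10.29, 10.32 and 9.52 in the controls and 9.03, 9.21 and 9.01 with JQ1. The groups did not overlap, but control 3 lay nearer to the JQ1 arrays than to the other controls. MYC fell 1.95-fold (log2 −0.96, SE 0.19, adjusted p = 0.019), and 2.33-fold (log2 −1.22, adjusted p = 4.8e-05) without control 3. MXD4, a repressor that competes with MYC for MAX, rose by 0.62 (SE 0.16, adjusted p = 0.048). MXD1 (−1.43), MNT (−0.62) and MXI1 (−0.50), which are also MAX partners, passed only without control 3, and the 2 rows of MXI1 had opposite signs with all arrays. The calls of MYC and MXD4 were lost without any 1 array other than control 3.

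Nucleolar ribosome biogenesis, a process driven by MYC in many cells, had 6 falls and 0 rises among 22 genes (27.3%, median −0.34). DDX21, an RNA helicase, read 11.04, 11.09 and 11.28 in the controls and 10.15, 10.41 and 10.25 with JQ1. The treated arrays were lower than every control, and the gene fell by 0.87 (SE 0.11, adjusted p = 0.0024). WDR43, RRP12 and WDR75, which process pre-rRNA, fell by 0.78, 0.58 and 0.53. Control 3 was higher than the mean of controls 1 and 2 on 21 of the 22 genes, with a median excess of 0.63. Without it the median was −0.08, and 6 genes fell and 2 rose (NHP2 0.70 and RRP1B 0.63). The WDR43 call was lost without JQ1 array 1 or 3, and that of WDR75 without control 1 or any JQ1 array. Of 44 cytosolic ribosomal protein genes, 1 rose and 0 fell (2.27%, median −0.08), and 2 rose and 1 fell without control 3 (6.82%). RPL28 rose by 0.41 (adjusted p = 0.046), a call lost without control 1, control 2, JQ1 array 2 or JQ1 array 3.

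**Figure D3:**
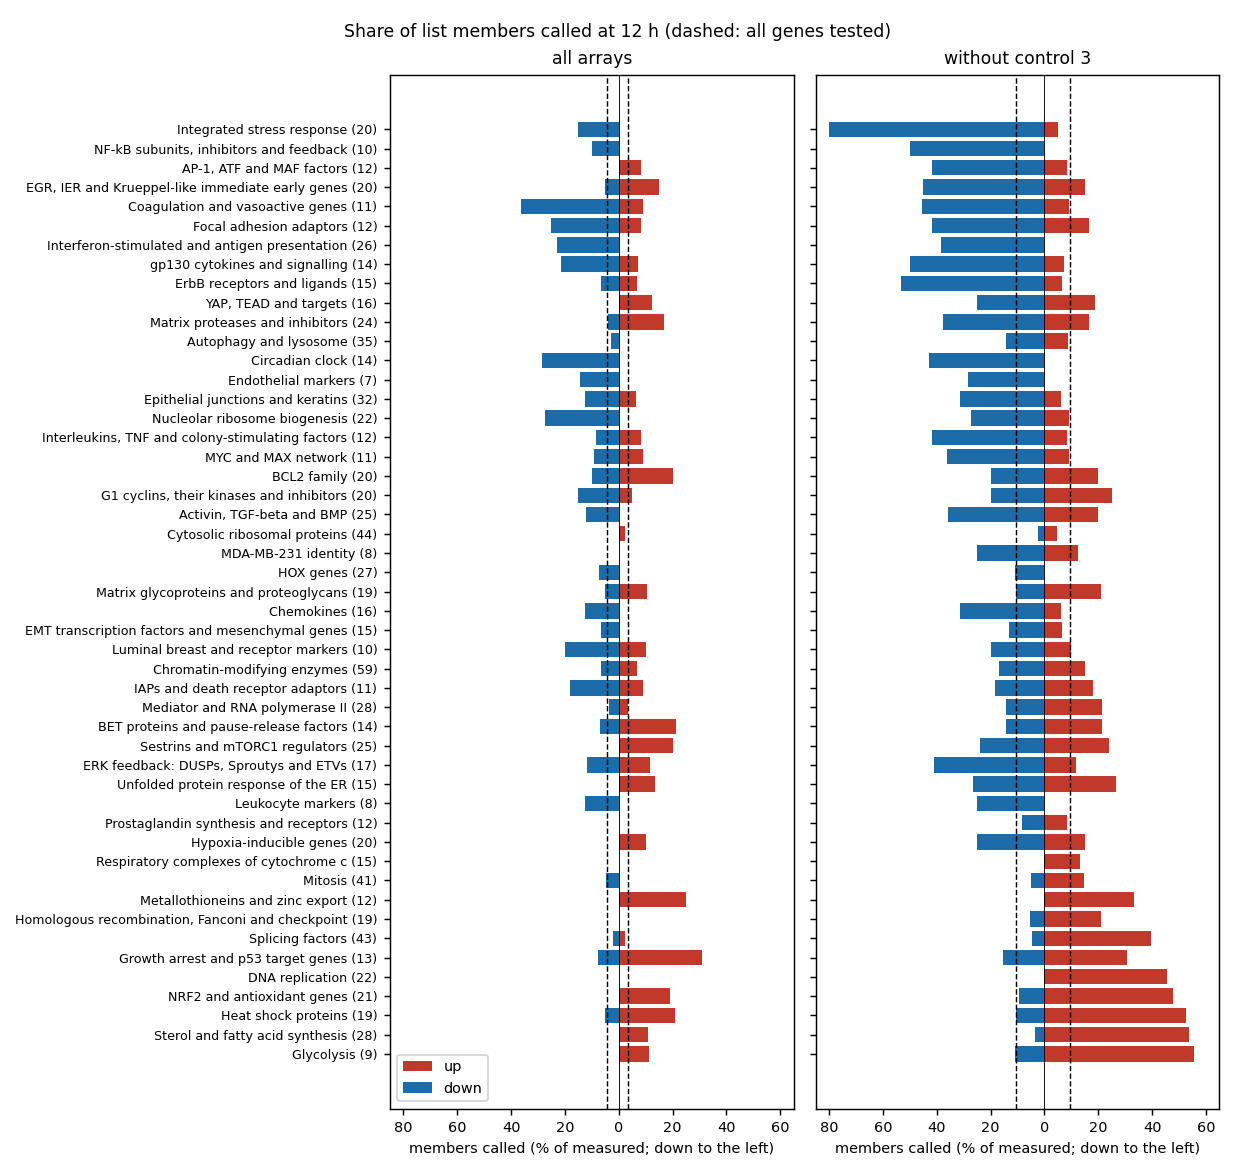
Share of the measured members of each gene list (number in brackets) that passed the test at 12 h, upward to the right in red and downward to the left in blue, with all arrays (left panel) and without control 3 (right panel), and dashed lines at the shares over all genes tested. The lists hold 937 distinct measured genes, and 624 other listed genes are not analysed here. With all arrays the fall of 4 of 11 coagulation and vasoactive genes is the longest blue bar, and without control 3 the fall of 16 of 20 integrated stress response genes is.

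NF-kB is a family of dimeric transcription factors that drives cytokine and chemokine genes. Of 10 genes for its subunits, inhibitors and feedback regulators, 1 fell and 0 rose (10.0% against 7.93% of all genes, median −0.28). Without control 3, 5 fell and 0 rose (50.0% against 20.1% of all genes, median −0.47). NFKB1, the p105/p50 subunit, read 8.94, 8.94 and 8.84 in the controls and 8.36, 8.25 and 8.42 with JQ1. Every control was above every treated array. NFKB1 fell by 0.56 (SE 0.09, adjusted p = 0.0056). TRAF1 (−1.67), NFKB2 (−1.01) and RELB (−0.60) passed only without control 3.

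Among 16 chemokine genes, 2 fell and 0 rose (12.5%, median −0.01), and 5 fell and 1 rose without control 3. CCL20, the ligand of CCR6, read 5.89, 6.32 and 4.81 in the controls and 4.31, 4.37 and 4.52 with JQ1. All 3 controls were above the treated arrays, with control 3 closest to them, and the log2 difference was −1.27 (SE 0.31, adjusted p = 0.039), or −1.70 without control 3. CXCL2, a neutrophil attractant, fell by 0.69 (SE 0.15, adjusted p = 0.025). CXCL8, interleukin-8, read 9.15, 8.94 and 5.17 in the controls and 5.36, 4.49 and 6.0 with JQ1. Control 3 lay inside the range of the treated arrays. CXCL8 differed by −2.47 (SE 0.94, adjusted p = 0.16) with all arrays and by −3.76 (adjusted p = 0.00031) without control 3. CXCL3 (−1.12) and CXCL5 (0.38) passed only without control 3. The call of CCL20 was lost without any 1 array other than control 3, and that of CXCL2 without control 1, control 2, JQ1 array 2 or JQ1 array 3.

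The NF-kB element was searched for in the promoters of the NF-kB, chemokine and interleukin lists, whose members moved in both directions. The pattern was GGGRNNYYCC, with R for A or G, Y for C or T and N for any base. Sites that depart from it were not counted, so 0 matches does not show that a promoter lacks a site. The 3 called genes that had a promoter sequence (CCL20, CXCL2 and NFKB1) held at least 1 match. CXCL8, IL24, TRAF1, NFKB2 and TNIP1, which fell only without control 3, held 0 matches. CXCL3, CXCL11 and IL32, which also fell only without it, held 1 each, and CXCL5, which rose only without it, held 1. CXCL10, CXCL6 and REL held matches and did not pass either way. Over both strands, 2614 of 27305 RefSeq promoters (9.57%) held a match in the 250 bases before the gene start, and 10 of the 28 list members with a sequence did. The windows shown, of the 3 called genes and of CXCL3, are examples with a match and are the 110 bases that end just before the gene start, in GRCh38.p14 and on the gene's own strand, with the match in capitals. CCL20 is at chr2:227813732-227813841 (plus strand), CXCL2 at chr4:74099196-74099305 (minus), CXCL3 at chr4:74038690-74038799 (minus) and NFKB1 at chr4:102501249-102501358 (plus). A match is a run of letters and was not tested for binding.
CCL20: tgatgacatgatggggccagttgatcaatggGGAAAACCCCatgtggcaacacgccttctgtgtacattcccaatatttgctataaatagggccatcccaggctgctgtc
CXCL2: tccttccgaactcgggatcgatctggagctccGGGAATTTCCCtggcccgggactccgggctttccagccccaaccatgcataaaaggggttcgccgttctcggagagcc
CXCL3: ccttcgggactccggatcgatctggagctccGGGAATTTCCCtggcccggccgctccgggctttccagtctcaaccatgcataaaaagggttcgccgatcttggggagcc
NFKB1: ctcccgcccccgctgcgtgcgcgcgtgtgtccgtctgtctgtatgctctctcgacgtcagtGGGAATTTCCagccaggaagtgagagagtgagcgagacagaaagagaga

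Of 12 interleukins, TNF family and colony-stimulating factors, 1 rose and 1 fell (16.7%, median −0.06). CSF1, the macrophage growth factor, fell by 1.06 (SE 0.22, adjusted p = 0.022) and IL18 rose by 0.42 (SE 0.10, adjusted p = 0.039). Their log2 differences were −1.34 and 0.43 without control 3. IL24, a cytokine of the IL-10 family, read 9.31, 9.34 and 4.46 in the controls and 4.15, 3.88 and 4.0 with JQ1. Control 3 lay beside the treated arrays, and controls 1 and 2 were far above all of them. The log2 difference was −3.70 (SE 1.08, adjusted p = 0.073) with all arrays and −5.32 (adjusted p = 4.1e-08) without control 3. Without that array 5 of the 12 fell and 1 rose, IL32 (−1.21) and CSF3 (−0.82) included. Both calls, of CSF1 and of IL18, were lost without any 1 array other than control 3.

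The gp130 cytokines signal through a shared receptor to STAT3. Of 14 genes of this group, 1 rose and 3 fell (28.6%, median −0.05), and 1 rose and 7 fell without control 3 (median −0.28). LIF, leukemia inhibitory factor, read 10.05, 10.09 and 8.09 in the controls and 6.78, 6.24 and 7.05 with JQ1. Control 3 was about midway between the other controls and the treated arrays. LIF fell by 2.72 (SE 0.48, adjusted p = 0.01), with a log2 difference of −3.38 without control 3. SOCS3, the feedback inhibitor of this pathway, went the other way, reading 8.01, 7.91 and 7.86 in the controls and 8.69, 8.86 and 8.63 with JQ1. No control reached a treated array, and SOCS3 rose by 0.80 (SE 0.08, adjusted p = 0.0014; 0.77 without control 3). IL6R (−0.60) and SOCS2 (−0.49) fell, and IL11 (−1.07), PIM1 (−0.67) and CTF1 (−0.64) passed only without control 3. The IL6R call was lost without any 1 array other than control 3, and that of SOCS2 without control 2, JQ1 array 2 or JQ1 array 3.

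In prostaglandin synthesis and reception, 0 of 12 genes passed with all arrays (median 0.03) and 1 rose and 1 fell without control 3 (16.7%). PTGS2, cyclooxygenase-2, read 11.05, 11.09 and 6.49 in the controls and 5.86, 5.66 and 5.97 with JQ1. Control 3 was close to the treated arrays and slightly above them. PTGS2 differed by −3.71 (SE 1.02, adjusted p = 0.058) with all arrays, and by −5.24 (adjusted p = 4.9e-08) without control 3. PTGES3 differed by 0.24 with all arrays and rose by 0.45 without control 3.

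Coagulation and vasoactive genes had 1 rise and 4 falls among 11 (45.5%, median −0.29), and 1 rise and 5 falls without control 3. TFPI, the inhibitor of the tissue factor pathway, read 8.75, 8.65 and 7.94 in the controls and 6.82, 6.58 and 7.13 with JQ1. The groups were separate, with control 3 the lowest control. TFPI fell by 1.60 (SE 0.21, adjusted p = 0.0035). Thrombomodulin (THBD) fell by 2.02 (SE 0.45, adjusted p = 0.026) and the thrombin receptor relative F2RL2 by 0.92 (SE 0.15, adjusted p = 0.0086), beside EDN1 given before. Thrombospondin 1 (THBS1) rose by 0.82 (SE 0.19, adjusted p = 0.032), and ECE1, which activates endothelin, passed only without control 3 (−0.63). THBD and THBS1 lost their calls without any 1 array other than control 3.

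Of 26 interferon-stimulated and antigen presentation genes, 6 fell and 0 rose (23.1%, median −0.13), and 10 fell and 0 rose without control 3 (38.5%, median −0.29). Both ligands of the T cell checkpoint receptor PD-1 were lower. CD274 (PD-L1) read 8.94, 8.92 and 8.09 in the controls and 6.58, 7.05 and 7.11 with JQ1. PDCD1LG2 (PD-L2) read 7.04, 6.68 and 5.97 in the controls against 4.59, 4.67 and 4.66. In both, control 3 was the lowest control and still well above the treated arrays. CD274 fell by 1.74 (SE 0.23, adjusted p = 0.0031) and PDCD1LG2 by 1.92 (SE 0.22, adjusted p = 0.002), and by 2.02 and 2.22 without control 3. The interferon-induced IFI44 (−1.01) and IFIT3 (−0.92) also fell, and IFIT2 (−0.99), ISG20 (−0.63) and CD276 (−0.45) passed only without control 3. IFIT3 lost its call without control 1, control 2, JQ1 array 1 or JQ1 array 2.

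Immediate early and growth factor genes are among the fastest to follow a change of medium or a mitogen. Among 12 AP-1, ATF and MAF factors, 1 rose and 0 fell (8.33% against 7.93% of all genes, median −0.16). Without control 3, 1 rose and 5 fell (median −0.42). JUND, the AP-1 subunit linked to quiescence, read 8.54, 8.52 and 7.63 in the controls and 9.46, 9.02 and 9.37 with JQ1. It rose by 1.05 (SE 0.24, adjusted p = 0.028) and by 0.76 without control 3, and the call was lost without JQ1 array 1, 2 or 3. JUN was opposite, at 10.66, 10.68 and 9.67 in the controls and 9.63, 9.67 and 9.67 with JQ1. Control 3 matched the treated arrays, and JUN differed by −0.68 (adjusted p = 0.12), or −1.01 (adjusted p = 5.2e-05) without it. ATF3 (−1.31) and MAFG (−0.55) passed only without control 3. Control 3 was below the mean of controls 1 and 2 on 11 of these 12 genes.

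The 20 EGR, IER and Krueppel-like genes had 3 rises and 1 fall (20%, median −0.15), and 3 rises and 9 falls without control 3. KLF2, a quiescence factor given above, MIDN (1.49, SE 0.21) and IER5 (0.60, SE 0.09), a partner of heat shock factor 1, rose. KLF11, a TGF-beta-inducible repressor, read 7.84, 8.06 and 7.24 in the controls and 6.04, 6.08 and 6.14 with JQ1. The treated arrays were tightly grouped below all controls, and KLF11 fell by 1.63 (SE 0.18, adjusted p = 0.0016). EGR1 read 12.03, 12.06 and 9.08 in the controls and 10.77, 9.81 and 10.98 with JQ1, so control 3 was below every treated array and controls 1 and 2 above them. Its log2 difference was −0.53 (adjusted p = 0.77) with all arrays and −1.52 (adjusted p = 0.015) without control 3. KLF7 (−1.27) and KLF9 (−1.11) also passed only without control 3, which was below the mean of the other controls on 19 of the 20 genes.

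Feedback regulators of the ERK pathway (17 genes) had 2 rises and 2 falls (23.5%, median −0.08), and 2 rises and 7 falls without control 3 (median 0.01). The phosphatases moved in both directions. DUSP4 read 7.44, 7.49 and 7.92 in the controls and 8.53, 8.55 and 8.62 with JQ1, without overlap, and rose by 0.95 (SE 0.13, adjusted p = 0.0036). DUSP14 rose by 0.53, DUSP16 fell by 0.57 and the transcription factor ETV4 fell by 0.60. SPRY2 (−0.89), SPRY4 (−0.81) and DUSP8 (−0.69) passed only without control 3. The call of ETV4 was lost without any 1 array other than control 3, and that of DUSP14 without control 1, control 2 or JQ1 array 1.

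Of 15 ErbB receptor and ligand genes, 1 rose and 1 fell (13.3% against 7.93% of all genes, median −0.11). Without control 3, 1 rose and 8 fell (60% against 20.1%, median −0.27). Neuregulin 1 (NRG1), a ligand of ErbB3 and ErbB4, read 6.87, 7.02 and 6.46 in the controls and 5.94, 5.67 and 5.99 with JQ1. It fell by 0.92 (SE 0.15, adjusted p = 0.0066), while NRG2 rose by 0.46 (SE 0.09, adjusted p = 0.019), a call lost without control 2, JQ1 array 1 or JQ1 array 3. Epiregulin (EREG) read 10.76, 10.81 and 9.37 in the controls against 8.88, 9.16 and 9.41 with JQ1. Control 3 lay within the treated range, and EREG passed only without it (−1.63, against −1.16 with adjusted p = 0.074). ERRFI1 (−1.44), a feedback inhibitor of EGFR, ADAM17 (−0.92), which sheds ErbB ligands, and EGFR itself (−0.52) also passed only without control 3.

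In the activin, TGF-beta and BMP group, whose activin and TGF-beta ligands and receptors are not analysed here, 3 of 25 genes fell and 0 rose (12.0%, median −0.17), and 5 rose and 9 fell without control 3 (56.0%, median −0.05). Beside FST, BMP2 fell by 1.49 (SE 0.39, adjusted p = 0.049) and SKIL, a corepressor of SMAD proteins, by 1.34 (SE 0.24, adjusted p = 0.012). Without control 3 the log2 difference of BMP2 was −2.05. SKIL read 7.38, 7.16 and 6.23 in the controls and 5.61, 5.58 and 5.58 with JQ1, the treated arrays being nearly equal and below all controls. GDF15, a stress-induced cytokine, read 10.87, 10.84 and 6.63 in the controls and 6.97, 6.25 and 6.97 with JQ1. Control 3 was inside the treated range, and GDF15 differed by −2.71 (adjusted p = 0.13), or −4.12 (adjusted p = 8.5e-06) without control 3. BMP4 (0.70) and SKI (0.58) rose only without it. The BMP2 call was lost without any 1 array other than control 3, and that of SKIL without control 2 or JQ1 array 2.

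Of 16 YAP and TEAD genes, 2 rose and 0 fell (12.5%, median −0.10), and 3 rose and 4 fell without control 3. CCN2, the standard YAP target, read 11.61, 11.66 and 11.25 in the controls and 12.51, 12.40 and 12.49 with JQ1. No arrays overlapped, and CCN2 rose by 0.96 (SE 0.11, adjusted p = 0.0023). STK3, a kinase that inhibits YAP, rose by 0.48 (adjusted p = 0.041). YAP1 itself (−0.88), AJUBA (−0.53) and ANKRD1 (0.51) passed only without control 3. STK3 lost its call without control 1, control 2, JQ1 array 2 or JQ1 array 3.

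Of 19 heat shock genes, which encode chaperones and their partners, 4 rose and 1 fell (26.3% against 7.93% of all genes, median 0.22). Without control 3, 10 rose and 2 fell (63.2% against 20.1%, median 0.39). HSPA1A, an inducible HSP70, read 9.52, 9.46 and 10.68 in the controls and 11.32 in each of the JQ1 arrays. Control 3 lay between the groups, nearer to the treated arrays. HSPA1A rose by 1.44 (SE 0.27, adjusted p = 0.014) and HSPA1B by 1.53 (SE 0.31, adjusted p = 0.019), and by 1.83 and 1.99 without control 3. The HSPA1A and HSPA1B genes are nearly identical, so probes cannot be relied on to separate them, and all of their rows were higher with JQ1. BAG3, a cochaperone of HSP70, rose by 0.49 (SE 0.07, adjusted p = 0.0048), whereas HSPA9, the mitochondrial HSP70, fell by 0.63 (SE 0.10, adjusted p = 0.0057). HSPH1 (0.91), HSPA4L (0.90) and HSPA2 (0.81) passed only without control 3. HSPA1B lost its call without any 1 array other than control 3, and HSPA1A without control 1 or any JQ1 array. The heat shock element, searched as 3 alternating GAA and TTC units each separated by NN on both strands, was in the 250 bases before 2 of the 17 members with a sequence and 0 of the 5 called ones, against 0.439% of all promoters. Units that depart from GAA or TTC were not counted, so 0 matches does not show that a promoter lacks the element.

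Metallothioneins bind zinc and copper and are induced by metals through the metal response element. Of 12 metallothionein and zinc export genes, 3 rose and 0 fell (25%, median 0.07), and 4 rose and 0 fell without control 3. MT1E read 7.03, 6.83 and 7.20 in the controls and 8.75, 8.37 and 8.70 with JQ1. The groups were clearly separate and control 3 was among its group. MT1E rose by 1.59 (SE 0.17, adjusted p = 0.0014; 1.68 without control 3). MT1X rose by 0.78 (SE 0.13, adjusted p = 0.0073) and MT2A by 0.50 (SE 0.12, adjusted p = 0.033), while MT1L passed only without control 3 (0.42). These genes are close copies of each other, so that probes may read more than 1 of them. The call of MT2A was lost without control 1 or any JQ1 array.

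The metal response element (TGCNCNC, both strands) stood in the 250 bases before both called genes with a promoter sequence, MT1X and MT2A, and before 5 of the 6 list members with one. It is a short motif, present before 48.4% of all promoters, and at least 2 copies stood before 17.6%. The 160 bases before the start of MT1X, at chr16:56682310-56682469 on the plus strand of GRCh38.p14 (RefSeq), held 4 matches. Those of MT2A, at chr16:56608424-56608583 on the plus strand, held 5. Capitals mark the matches, which were not tested for binding.
MT1X: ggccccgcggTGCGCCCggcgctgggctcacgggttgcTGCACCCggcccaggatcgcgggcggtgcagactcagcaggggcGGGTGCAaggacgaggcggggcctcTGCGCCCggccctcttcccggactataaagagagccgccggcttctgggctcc
MT2A: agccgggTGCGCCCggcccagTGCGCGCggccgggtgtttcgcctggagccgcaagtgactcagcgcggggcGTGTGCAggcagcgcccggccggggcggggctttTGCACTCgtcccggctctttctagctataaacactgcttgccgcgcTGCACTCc

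The integrated stress response couples amino acid shortage and other stresses to ATF4 and its targets for amino acid synthesis and tRNA charging. Of 20 members, 3 fell and 0 rose with all arrays (15.0%, median −0.75). Without control 3, 16 fell and 1 rose (85% against 20.1% of all genes, median −1.15). AARS1, alanyl-tRNA synthetase, read 11.74, 11.78 and 10.31 in the controls and 9.99, 10.04 and 9.95 with JQ1. Control 3 was just above the treated arrays and far below the other controls. AARS1 fell by 1.29 (SE 0.33, adjusted p = 0.044), PSAT1, of serine synthesis, by 1.23 (SE 0.29) and PYCR1, of proline synthesis, by 0.78 (SE 0.19). The log2 difference of AARS1 was −1.77 without control 3. Asparagine synthetase (ASNS) read 10.59, 10.60 and 8.08 in the controls and 8.09, 8.54 and 8.13 with JQ1, with control 3 level with the lowest of the treated arrays. ASNS differed by −1.51 (adjusted p = 0.16), or −2.34 (adjusted p = 1e-05) without control 3, and TRIB3 (−2.62), SESN2 (−2.43) and STC2 (−1.70) also passed only then. Control 3 was below the mean of controls 1 and 2 on 19 of the 20 members, with a median of −1.16. The 3 calls made with all arrays were lost without any 1 array other than control 3.

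Genes of the unfolded protein response of the endoplasmic reticulum divided. Of 15, 2 rose and 0 fell (13.3%, median 0.04), and 4 rose and 4 fell without control 3. The chaperones MANF (1.07, SE 0.17, adjusted p = 0.0067) and calreticulin, CALR (0.70, SE 0.11, adjusted p = 0.0062), rose. MANF read 7.29, 7.47 and 8.03 in the controls and 8.70, 8.73 and 8.58 with JQ1, with no overlap. The sensor ERN1 (−1.60) and its target XBP1 (−1.73) passed only without control 3, both downward, and SDF2L1 (0.96) passed only without it upward. XBP1 read 10.10, 10.16 and 8.61 in the controls and 8.41, 8.39 and 8.41 with JQ1, so control 3 was 1 of the low arrays.

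NRF2 and antioxidant genes had 4 rises and 0 falls among 21 (19.0% against 7.93% of all genes, median 0.22). Without control 3, 10 rose and 2 fell (57.1% against 20.1%, median 0.35). Catalase (CAT) read 8.14, 8.22 and 8.48 in the controls and 9.02, 9.01 and 9.06 with JQ1. All treated arrays were higher than all controls, and CAT rose by 0.75 (SE 0.13, adjusted p = 0.011). Peroxiredoxin 1 (PRDX1) rose by 0.84, thioredoxin reductase (TXNRD1) by 0.80 and PGD, which makes NADPH, by 0.60. GSR (1.08), HMOX1 (−0.66) and TXNIP (−0.94), which inhibits thioredoxin, passed only without control 3. PRDX1 lost its call without any 1 array other than control 3, and TXNRD1 without control 1 or 2.

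Among 25 sestrins and regulators of mTORC1, the growth kinase that senses amino acids, 5 rose and 0 fell (20%, median 0.09). SESN3 and SESN1 rose, and SESN2 did not. SESN3 read 5.62, 5.63 and 5.26 in the controls and 8.19, 7.92 and 8.35 with JQ1, a clear separation with a 6.27-fold rise (adjusted p = 0.00011). SESN1 read 5.52, 5.63 and 6.22 against 6.56, 6.73 and 7.05 and rose by 0.99 (SE 0.19, adjusted p = 0.014). SESN2, an ATF4 target, read 10.03, 9.98 and 6.74 in the controls and 7.57, 7.55 and 7.61 with JQ1. On SESN2 control 3 was the lowest of all 6 arrays, and the difference was −1.34 (adjusted p = 0.35) with all arrays. EIF4EBP2, a translation repressor that mTORC1 inactivates, rose by 0.73 (SE 0.12, adjusted p = 0.0086) and RRAGA, a Rag GTPase, by 0.65 (SE 0.15, adjusted p = 0.034). Without control 3, 6 rose and 6 fell, with DDIT4 (−2.00) and EIF4EBP1 (−0.96) among the falls. SESN1 lost its call without control 1, control 2, JQ1 array 2 or JQ1 array 3, and RRAGA without control 2 or any JQ1 array.

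**Figure D4:**
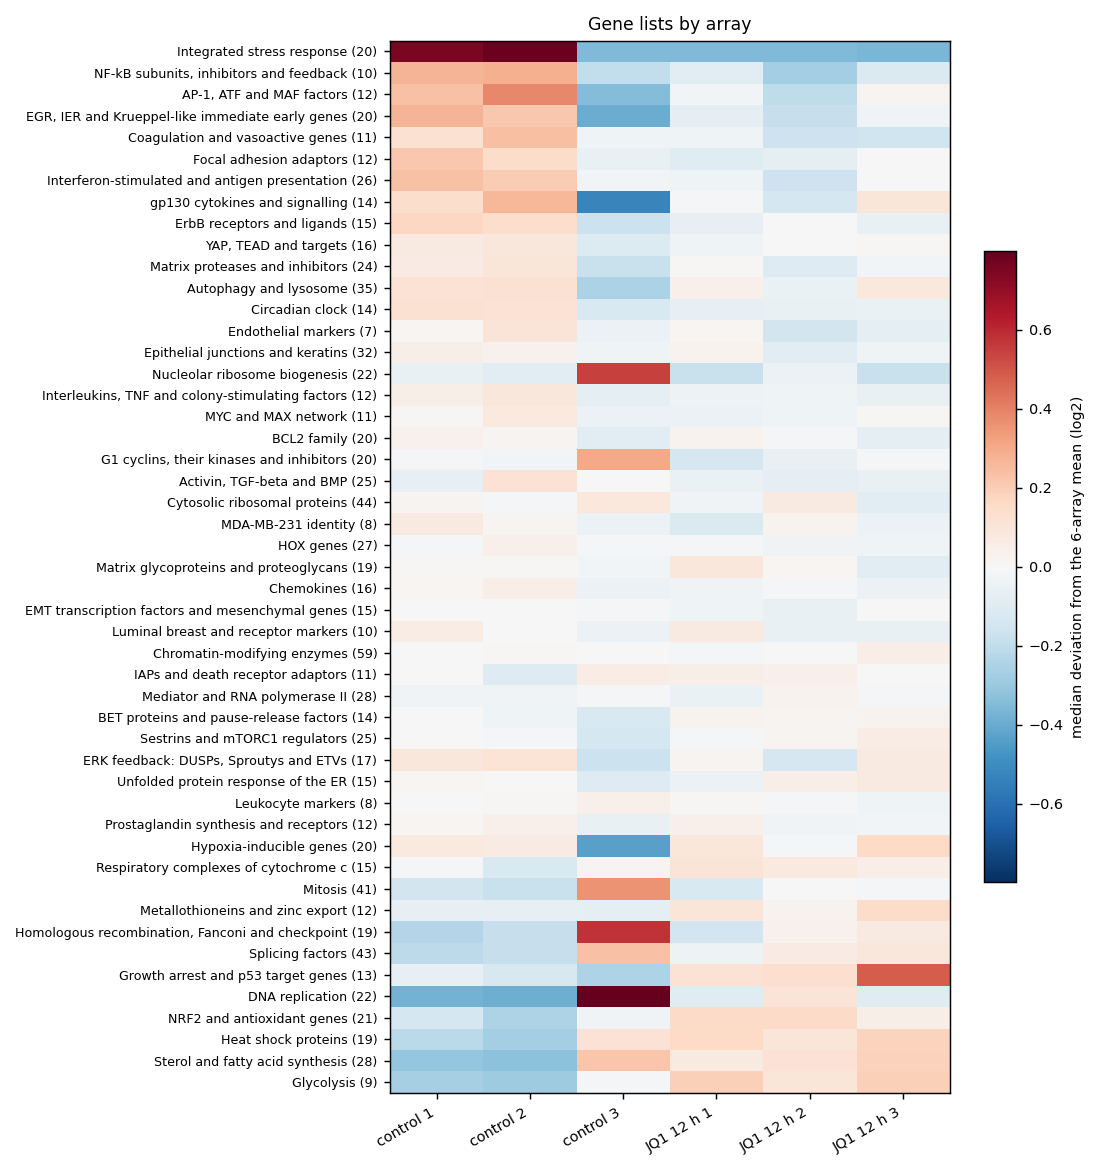
For each gene list (rows, number of measured members in brackets) and each of the 6 arrays (columns), the colour gives the median over members of the deviation from the member's mean over the 6 arrays, in log2 (red higher, blue lower). Controls 1 and 2 are alike on most lists, and control 3 departs from them in both directions, above them on DNA replication (22 members) and below them on the integrated stress response (20 members).

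The list for the G1 phase, in which cells commit to division, had 1 rise and 3 falls among 20 genes (20%, median −0.09). CDK6 read 9.22, 9.37 and 9.26 in the controls and 8.30, 8.41 and 8.53 with JQ1. The controls lay close together above the treated arrays, and CDK6 fell by 0.87 (SE 0.12, adjusted p = 0.004), and by 0.88 without control 3. E2F3, the transcription factor of S phase entry, fell by 0.88 (SE 0.11, adjusted p = 0.0031) and CDK4 by 0.58 (SE 0.10, adjusted p = 0.011). The 1 rise was that of cyclin G1 (CCNG1), a p53 target rather than a G1 phase cyclin (0.68, SE 0.11, adjusted p = 0.0072). It is also counted in the p53 target list below. Without control 3, 5 rose and 4 fell, and the S phase cyclins CCNE1 (0.84) and CCNE2 (0.81) and E2F1 (0.54) joined the rises.

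DNA replication was the group on which control 3 differed most upward. It exceeded the mean of controls 1 and 2 on 22 of 22 genes, by a median of 1.18. With all arrays 0 of 22 genes passed (median −0.03), and without control 3 10 rose and 0 fell (45.5%, median 0.33). MCM4, of the replicative helicase, read 8.23, 8.30 and 9.94 in the controls and 9.26, 9.48 and 9.45 with JQ1. The treated arrays lay between controls 1 and 2 and control 3. MCM4 differed by 0.57 (adjusted p = 0.47), or by 1.13 (adjusted p = 0.00025) without control 3. RRM2, of ribonucleotide reductase, read 9.25, 9.28 and 10.42 against 10.43, 10.62 and 10.46, so that control 3 was beside the treated arrays, and it passed only without control 3 (1.24). CDC7, a kinase that fires origins, did likewise (0.91).

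Mitosis genes had 0 rises and 2 falls among 41 (4.88%, median −0.06). There were 6 rises and 2 falls without control 3 (median 0.16), a share of 19.5% against 20.1% of all genes. HMMR fell by 0.59 (SE 0.15, adjusted p = 0.047) and the checkpoint protein BUB3 by 0.42 (SE 0.09, adjusted p = 0.025). KIF20A, a kinesin of cytokinesis, read 7.78, 7.78 and 9.61 in the controls and 9.33, 9.42 and 9.27 with JQ1, with control 3 above all treated arrays, and passed only without it (1.56). KIF15 (0.87) and BUB1 (0.81) did likewise. Homologous recombination, Fanconi and checkpoint genes had 0 of 19 called with all arrays (median 0.01). They had 4 rises and 1 fall without control 3 (26.3%), with CLSPN (1.05), RAD54B (0.62) and RAD54L (0.62) among the rises. Control 3 was higher than the mean of the other controls on 38 of the 41 mitosis genes and 16 of the 19 recombination genes. Both calls of the mitosis group were lost without any 1 array other than control 3.

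Of 13 growth arrest and p53 target genes, measured of a list of 28 and lacking several of its best-known members, 4 rose and 1 fell (38.5%, median 0.59), and 4 rose and 2 fell without control 3 (median 0.27). MDA-MB-231 carries a mutant p53. PMAIP1 (NOXA), a BH3-only inducer of apoptosis, read 10.11, 10.07 and 8.77 in the controls and 10.85, 10.78 and 10.98 with JQ1. Control 3 was the lowest array, and the rise was 1.22 (SE 0.30, adjusted p = 0.04) with it and 0.78 without it. CCNG1 and SESN1, given before, rose as well. AEN, a p53-induced nuclease, fell by 0.85 (SE 0.11, adjusted p = 0.0031). PMAIP1 lost its call without JQ1 array 1, 2 or 3.

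In the BCL2 family 4 of 20 rose and 2 fell (30%, median −0.05), and 4 rose and 4 fell without control 3. BCL2A1, an antiapoptotic NF-kB target, read 9.30, 9.17 and 7.65 in the controls and 7.03, 7.0 and 7.24 with JQ1. It fell by 1.62 (SE 0.37, adjusted p = 0.031), and by 2.15 without control 3. BCL2L11 (BIM), a BH3-only killer, rose by 0.85, BCL2L12 by 0.83 and BNIP3, of hypoxia and mitophagy, by 0.83. Their rises were 1.14, 1.09 and 0.78 without control 3. BCL2L13 (−0.65) and MCL1 (−0.36) passed only without control 3. Of 11 IAPs and adaptors or regulators of caspases and death receptors, measured of a list of 31 genes, 1 rose and 2 fell (27.3%, median −0.03; the caspases and death receptors themselves are not analysed here), and 2 rose and 2 fell without control 3. CFLAR (FLIP), which blocks caspase-8, read 6.61, 6.62 and 6.16 in the controls and 5.28, 5.57 and 5.78 with JQ1, without overlap, and fell by 0.92 (SE 0.16, adjusted p = 0.0099). BIRC2 (cIAP1) fell by 0.43 and APAF1, of the apoptosome, rose by 0.57, while BIRC5 (survivin) passed only without control 3 (0.46). The calls of BCL2A1, BCL2L11 and BCL2L12 were lost without any 1 array other than control 3, that of BIRC2 without control 1 or any JQ1 array, and that of APAF1 without control 1 or 2.

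Of 9 glycolysis genes, 1 rose and 0 fell (11.1% against 7.93% of all genes, median 0.28). Without control 3, 5 rose and 1 fell (66.7% against 20.1%, median 0.48). GAPDH read 8.06, 8.04 and 8.25 in the controls and 8.51, 8.52 and 8.56 with JQ1, without overlap, and rose by 0.42 (SE 0.08, adjusted p = 0.014). PGAM1 (1.29), LDHA (0.61) and LDHB (0.56) passed only without control 3. Hypoxia-inducible genes had 2 rises and 0 falls among 20 (10.0%, median 0.15), and 3 rises and 5 falls without control 3. Adrenomedullin (ADM) rose by 0.86 (SE 0.12, adjusted p = 0.0045), beside BNIP3. VEGFA, the angiogenic growth factor, read 9.43, 9.79 and 7.20 in the controls and 7.33, 7.15 and 7.45 with JQ1, with control 3 inside the treated range. It passed only without control 3 (−2.30, against −1.5 with adjusted p = 0.14), as did STC1 (−2.55) and LOX (−1.63). GAPDH lost its call without control 1, control 2, JQ1 array 2 or JQ1 array 3.

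SREBP factors control sterol and fatty acid synthesis. Of 28 genes listed for it, not all of them synthesis enzymes, 3 rose and 0 fell (10.7% against 7.93% of all genes, median 0.26). Without control 3, 15 rose and 1 fell (57.1% against 20.1%, median 0.47). MVD, a decarboxylase of the mevalonate pathway, read 6.84, 6.89 and 7.04 in the controls and 7.91, 7.69 and 7.72 with JQ1. The groups were separate and MVD rose by 0.85 (SE 0.10, adjusted p = 0.0023). ACSS2, which makes acetyl-CoA, rose by 0.41 (adjusted p = 0.024). The third is MYLIP, the ubiquitin ligase of the LDL receptor, which is not a synthesis enzyme. The share of 10.7% includes it. INSIG1, the sterol sensor partner of SREBP, read 7.44, 7.46 and 9.06 against 8.89, 9.08 and 9.22. Control 3 was among the treated values, and INSIG1 (1.61), DHCR7 (1.29) and IDI1 (1.24) passed only without it. The ACSS2 call was lost without control 2 or any JQ1 array. Of 15 genes of respiratory complexes that reduce or oxidise cytochrome c, from a respiratory chain list of 73 whose other complexes are not analysed here, 0 passed with all arrays (median 0.09). There were 2 rises, COX6B1 (0.71) and COX5A (0.63), and 0 falls without control 3 (13.3% against 20.1% of all genes). Autophagy and lysosome genes had 0 rises and 1 fall among 35 (2.86%, median 0.00). They had 3 rises and 5 falls without control 3 (22.9% against 20.1% of all genes). ATG7 fell by 0.42 (adjusted p = 0.018), a call lost without control 1, control 2 or JQ1 array 1, and MAP1LC3B (−0.93), HEXA (−0.75) and CTSK (0.51) passed only without control 3.

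Circadian clock genes, which form a transcriptional feedback loop, had 4 falls and 0 rises among 14 (28.6%, median −0.06), and 6 falls and 0 rises without control 3. PER2, a repressor arm gene, read 8.54, 8.45 and 6.70 in the controls and 5.83, 5.95 and 5.54 with JQ1. Control 3 lay between the groups. PER2 fell by 2.13 (SE 0.41, adjusted p = 0.016), and by 2.72 without control 3. NPAS2 (−0.83) and CLOCK (−0.61), both activators of the loop, and PER3 (−0.55) fell. PER1 (−0.78) and CRY1 (−0.36) passed only without control 3. PER2 and NPAS2 lost their calls without any 1 array other than control 3, and PER3 without control 1, control 2, JQ1 array 2 or JQ1 array 3.

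Of 27 HOX genes, 0 rose and 2 fell (7.41% against 7.93% of all genes, median −0.01). There were 0 rises and 3 falls without control 3 (11.1% against 20.1%). HOXB9 read 10.02, 9.92 and 8.22 in the controls and 7.35, 7.22 and 7.31 with JQ1. All controls were higher, with control 3 the nearest, and HOXB9 fell by 2.09 (SE 0.40, adjusted p = 0.015). Its log2 difference was −2.68 without control 3. HOXB3 fell by 0.39, and HOXD3 passed only without control 3 (−0.48). Mesenchymal genes and their transcription factors had 0 rises and 1 fall among 15 (6.67% against 7.93%, median −0.06), and 1 rise and 2 falls without control 3. ZEB2 fell by 0.32 (adjusted p = 0.041), and ZEB1 (−0.52) and VIM (0.36) passed only without control 3. The other 2 rows of VIM differed by 0.62 and 0.65 with all arrays, against 0.28 for the row used. HOXB9 and ZEB2 lost their calls without any 1 array other than control 3, and HOXB3 without control 1, control 2, JQ1 array 1 or JQ1 array 2.

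Epithelial junction and keratin genes had 2 rises and 4 falls among 32 (18.8%, median −0.07), and 2 rises and 10 falls without control 3 (37.5%). DSC2, a desmosomal cadherin, read 6.98, 7.15 and 6.17 in the controls and 4.99, 4.90 and 5.45 with JQ1. Every treated array was lower than every control, and DSC2 fell by 1.65 (SE 0.25, adjusted p = 0.0058). Keratin 7 (KRT7) fell by 0.88, whereas plakoglobin (JUP) rose by 0.96 and keratin 18 (KRT18) by 0.61. Their log2 differences were −0.77, 0.72 and 0.59 without control 3. CLDN1, a tight junction claudin, read 8.73, 8.77 and 5.57 against 5.62, 4.96 and 5.36, with control 3 inside the treated range, and passed only without it (−3.44, against −2.37 with adjusted p = 0.083). ESRP1 (−1.96) and CLDN7 (−1.05) did likewise. Among 10 luminal and receptor markers, 1 rose (KRT18) and 2 fell (30%, median 0.02), the falls being GATA3 (−0.38) and EPCAM (−0.28), and the counts were equal without control 3. GATA3 and EPCAM lost their calls without any 1 array other than control 3. KRT7 and JUP lost theirs without control 2 or any JQ1 array, and KRT18 without control 1, control 2, JQ1 array 1 or JQ1 array 2.

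Of 19 matrix glycoproteins and proteoglycans, from a list of 50 whose collagens and laminins are not analysed here, 2 rose and 1 fell (15.8%, median −0.02), and 4 rose and 2 fell without control 3. Tenascin C (TNC), a matrix protein of wounds and tumour stroma, read 10.41, 10.28 and 7.41 in the controls and 6.69, 6.26 and 6.69 with JQ1. Control 3 was much nearer the treated arrays than the other controls. TNC fell 7.06-fold (log2 −2.82, SE 0.66, adjusted p = 0.033), with a log2 difference of −3.80 without control 3. Fibrillin (FBN1) rose by 0.59 (SE 0.10, adjusted p = 0.0082), beside THBS1. HSPG2 (0.63), EFEMP1 (0.56) and FN1 (−0.41) passed only without control 3. The TNC call was lost without any 1 array other than control 3.

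Focal adhesion adaptors, which link integrins to actin, had 1 rise and 3 falls among the 12 measured of a list of 35 genes (the integrin subunits are not analysed here; 33.3%, median −0.10), and 2 rises and 5 falls without control 3 (58.3%, median −0.29). FERMT3, an integrin activator, read 8.88, 8.74 and 7.48 in the controls and 6.68, 6.85 and 6.80 with JQ1, and fell by 1.59 (SE 0.31, adjusted p = 0.017). Its log2 difference was −2.03 without control 3. FERMT1 fell by 0.77 and TNS3 by 0.68, while talin 2 (TLN2) rose by 0.62. VCL (0.58), ZYX (−0.40) and TLN1 (−0.35) passed only without control 3. Of 24 matrix proteases and inhibitors, 4 rose and 1 fell (20.8%, median −0.10), and 4 rose and 9 fell without control 3. MMP15, a membrane protease, read 6.13, 6.52 and 6.68 against 7.60, 7.36 and 7.53 and rose by 1.05 (SE 0.15, adjusted p = 0.004). TIMP2, an inhibitor of these proteases, rose by 0.60 (SE 0.07, adjusted p = 0.0023) and TIMP3 by 0.42, and MMP16 fell by 0.67. Interstitial collagenase, MMP1, read 11.82, 11.78 and 9.96 against 9.89, 10.04 and 10.09, with control 3 beside the treated arrays, and passed only without it (−1.79), as did TIMP4 (−2.24) and MMP10 (−1.19). FERMT3 lost its call without any 1 array other than control 3, FERMT1 without JQ1 array 1 or 3, and TIMP3 without control 2 or any JQ1 array.

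Splicing factor genes had 1 rise and 1 fall among 43 (4.65%, median 0.09), and 17 rises and 2 falls without control 3 (44.2%, median 0.22). The core factor SNRPB read 9.86, 9.71 and 9.66 in the controls and 9.20, 9.29 and 9.0 with JQ1, and fell by 0.58 (SE 0.10, adjusted p = 0.0081). PRPF6 rose by 0.41, a call lost without any 1 array other than control 3. SRSF2 read 9.51, 9.60 and 10.75 against 10.53, 10.57 and 10.75, with control 3 level with the highest treated array, and SRSF2 (1.06), SRSF4 (0.94) and SRSF7 (0.82) passed only without it. Control 3 was higher than the mean of the other controls on 37 of the 43 genes. Of 59 chromatin-modifying enzymes, 4 rose and 4 fell (13.6%, median 0.05), and 9 rose and 10 fell without control 3. The methyltransferase NSD1 read 8.14, 8.19 and 8.06 in the controls and 7.08, 7.46 and 7.37 with JQ1 and fell by 0.82 (SE 0.13, adjusted p = 0.0067). The acetyltransferase CREBBP fell by 0.72, the deacetylase HDAC9 fell by 0.72 and the deacetylase SIRT2 rose by 0.76. KDM7A (−2.05), KDM6B (−1.77) and EHMT2 (0.71) passed only without control 3. CREBBP lost its call without control 1, control 2, JQ1 array 1 or JQ1 array 3, and SIRT2 without JQ1 array 1 or 2.

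Of 8 leukocyte markers, 1 fell (CD22) and 0 rose, and 2 fell without control 3 (CD68 −0.33). The list's median level was 5.44 in the controls and 5.45 with JQ1. CD22, a B cell receptor, was bright in this carcinoma line, reading 11.51, 11.56 and 10.49 in the controls and 8.97, 9.10 and 9.15 with JQ1, and fell by 2.11 (SE 0.27, adjusted p = 0.0028). CD68, a lysosomal protein of macrophages, was also bright (control mean 11.76), while CD14 (4.24), LYZ (3.76) and CD4 (5.27) were dim. Of 7 endothelial markers, 1 fell (THBD) and 0 rose (14.3%), and 2 fell without control 3 (28.6%), with ESAM (−1.21) added. Lists this short cannot separate such counts from the shares over all genes. THBD (control mean 9.15) and ESAM (9.51) were bright, and PECAM1 (4.19), VWF (4.98) and KDR (4.98) were dim. Of the 8 markers of the line, 0 passed with all arrays, and 1 rose and 2 fell without control 3 (37.5%).

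Outside the lists, the 10 largest falls that passed only without control 3 were each larger than the 10 largest such rises. TREM1, a receptor that amplifies myeloid inflammation, read 8.17, 8.31 and 4.16 in the controls and 4.38, 4.24 and 4.37 with JQ1. Control 3 was the lowest array, and the log2 difference was −2.55 (adjusted p = 0.13) with all arrays against −3.91 (adjusted p = 3.1e-07) without control 3. ICAM1, the adhesion ligand of leukocyte integrins, read 9.12, 9.20 and 6.68 against 6.87, 5.92 and 6.71 and differed by −2.66 without control 3. SPX, CREBRF, PAPPA2, NTN4, LTBP1, UPP1, GTPBP2 and TCP11L2 lay between −3.03 and −1.84. On TCP11L2 control 3 (5.98) was below every treated array. The 10 highest such rises ran from 1.32 to 1.63. ARHGEF26 read 6.28, 6.15 and 7.87 in the controls and 7.64, 7.93 and 7.97 with JQ1, with control 3 inside the treated range. WDCP, NAPEPLD, SRRT, NT5DC1, PDCL3, POGLUT2, KITLG, PRMT7 and GOLIM4 made up the rest.

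**Figure D5:**
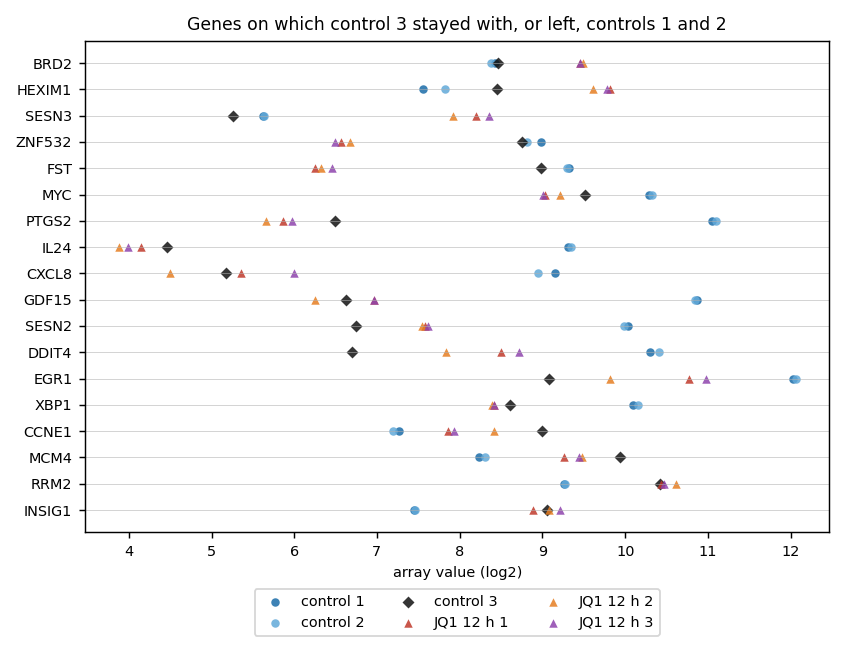
Log2 array values (horizontal axis) of 18 genes, 1 per line, with circles for controls 1 and 2, a black diamond for control 3 and triangles for the 3 JQ1 arrays. On BRD2, ZNF532 and FST the diamond stays with the circles, on PTGS2, IL24, CXCL8 and GDF15 it lies with or beside the triangles, and on MCM4, CCNE1 and EGR1 it lies beyond them.

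The 12 h and 24 h comparisons share the 3 control arrays, so their values are only set side by side. The 24 h values are given with all 3 controls only. The 24 h differences from control were 3.15 for EFR3B, 2.41 for SESN3, 1.84 for HEXIM1, 0.96 for BRD2, −2.88 for FST, −1.95 for ZNF532 and −0.76 for MYC. Tested directly and without the controls' means, 1 of 14884 genes differed between 24 h and 12 h of JQ1 at an adjusted p under 0.05. It was AOX1, an aldehyde oxidase, named after its values were seen, which fell at 12 h (log2 −1.26, adjusted p = 0.00021) and lower again at 24 h (24 h minus 12 h, log2 −1.28, adjusted p = 0.0024).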

How the data were processed

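The deposited table holds 53617 rows and 1 value per array for 9 arrays, made with Transcriptome Analysis Console per the submitters' processing notes (version, background correction and normalization not given in the sources used here). The deposited values were taken as log2 because they run from 2.01 to 13.88 and were used without further scaling. Gene names came from the platform annotation (16098 rows with 1 symbol, 0 with several, 37519 unnamed), all matched to RefSeq by gene ID, and the row with the highest mean stood for each of 14884 genes. Where a gene had several rows (779 genes), they could differ. No filter on dim genes was applied.

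The test was limma (version 3.58.1, R 4.3.3), with 1 mean per group over all 9 arrays and empirical Bayes moderation. P-values were adjusted by Benjamini-Hochberg across all 14884 genes, and "called" means an adjusted p under 0.05. "Without control 3" is the same fit on the other 8 arrays. SE is the moderated standard error, and 3 arrays per group limit the precision. The fit was tested on simulated data. Tables and figures were made with pandas 2.3.3 and matplotlib 3.10.9 in Python 3.11.15.

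The comparison, the 49 gene lists described and the rule for named genes were chosen with earlier results of these data known, and no set test was run. The rule takes the 20 highest and 20 lowest differences called with and without control 3 (without uncharacterised loci, small RNAs, antisense transcripts, olfactory receptors and pseudogenes), up to 4 called members per list and up to 3 called only without control 3, up to 10 genes each way outside the lists called only without control 3, and MYC, BRD2, BRD3 and HEXIM1 whatever their call. An item of this rule is not reported here. Lists of amino acid transporters and proteasome subunits had 0 measured members and are not analysed here. Controls and JQ1 arrays with the same replicate number did not deviate together (r over genes of 0.092, −0.316 and −0.07), so the numbers were not taken to pair them. Motifs were searched in RefSeq promoter windows of GRCh38.p14. Alternatives tried were the arrays in the fit, each array left out, the replicate block, the prior, array weights, a filter on dim genes, the mean of a gene's rows and quantile normalization.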

Additional observations from a re-analysis of the deposited data

Results flagged for a closer look

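AOX1, an aldehyde oxidase, was the 1 gene that passed a test of the difference between the treatment times (limma, all 9 arrays, with control 3 in the spread). It read 9.17, 9.03 and 9.33 in the controls, 7.91, 7.94 and 7.90 after 12 h of JQ1 and 6.75, 6.56 and 6.61 after 24 h. The 3 groups did not overlap, and the log2 difference of 24 h minus 12 h was −1.28 (adjusted p = 0.0024).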

How the results depend on the processing

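The number of genes called at 12 h moved with the arrays used. Against 1181 with all arrays, 577 were called from only the 6 arrays compared, 3498 with array weights (control 3 weighed 0.213, the others 0.692 to 1.97), and 543 to 2986 when 1 array was left out, the highest without control 3. Calls that were at least 2-fold numbered 177 with all arrays, 396 with array weights and 118 to 424 with 1 array left out. Leaving control 3 out of a fit to only the arrays compared, an alternative added after seeing the data, gave 2812 calls and 426 at least 2-fold. With the replicate number as a replicate block, 967 genes were called, and the calls of 19 of the 281 named genes were lost and 1 gained. The cause of these shifts was not tested. The intensity trend (1052), robust prior (1164), filter on dim genes (1316), mean of rows (1158) and quantile normalization (1259) stayed within 1.5 times the count. No named gene that was called reversed its direction under any of these alternatives. The medians of 7 lists changed sign without control 3, those of DNA replication (−0.03 to 0.33) and mitosis (−0.06 to 0.16) by more than 0.1. Detection calls were not used here, so how far dim genes lie above background is unknown.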
